A study of Mus musculus with 6 samples.

Results

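Pericytes are the mural cells that wrap capillaries, and 10 genes that mark them were followed in mouse hearts under pressure overload: Pdgfrb, Rgs5, Kcnj8, Abcc9, Cspg4, Notch3, Vtn, Higd1b, Colec11 and Steap4. They were chosen by symbol as known markers. All 10 were among the 24404 genes of the count table, and all 10 were among the 12487 genes that passed the filter on low counts. Hearts came from 2 groups of mice: KO-TAC, 3 libraries of the genotype miR-204-/-, and WT-TAC, 3 libraries of wild type. Every mouse, wild type included, had transaortic constriction, an operation that narrows the aorta and makes the left ventricle pump against a higher pressure, and hearts were taken 5 weeks later. The sources used here do not give strain, sex, age, which cells lack the microRNA or how many animals a library holds, so a p-value speaks only of the variation among these 6 libraries, which may be technical. Unoperated hearts were not analysed here.

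Endothelial cells recruit pericytes by secreting PDGF-B, which the receptor encoded by Pdgfrb senses, and Notch3 signalling, set off by Jagged and Delta ligands on endothelial cells, helps mural cells mature. In the heart pericytes cover the dense capillary bed between the muscle fibres and can regulate its blood flow, partly through ATP-sensitive potassium channels built from the Kcnj8 and Abcc9 products. Several of these genes are not restricted to pericytes: Notch3 and Rgs5 are shared with vascular smooth muscle, and Abcc9 is also the regulatory subunit of the potassium channel of cardiomyocytes.

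Total counts ran from 6411538 to 8571737 per library. No library was a copy of another: over the 15 pairs, the median chi-square of genes with at least 100 summed counts was 3.17 to 7.74, where counting noise alone gives 0.455. The most alike pair was KO-TAC replicate 3 and WT-TAC replicate 3, from different genotypes. The deposited column of KO-TAC replicate 3 also carries the number of WT-TAC replicate 3 in place of the one its label gives. It was assigned by its library index, and leaving it out turned the sign of Pdgfrb and Abcc9 among the 10. The tissue label was met by its markers: the 10 cardiomyocyte markers, among them Myh6 and Tnnt2, summed to 78902 to 111990 CPM in KO-TAC and 81796 to 98113 CPM in WT-TAC. The 10 pericyte markers summed to 822 to 899 CPM in KO-TAC and 694 to 816 CPM in WT-TAC. Abcc9, also a gene of cardiomyocytes, was the largest part of this sum in every library. It had 285 to 460.4 CPM in KO-TAC and 214 to 395 CPM in WT-TAC. The sum without Abcc9 was not taken. In whole tissue, fewer cells of a type and less RNA per cell cannot be told apart.

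None of the pericyte markers passed the test between the genotypes, and the fitted differences were small for most. With edgeR (quasi-likelihood F-test, Benjamini-Hochberg over the 12487 genes, threshold 0.05), 0 of the 10 were called, beside 0.024% of all tested genes, and each had an adjusted p of 0.999. DESeq2, which called 0.128% of all tested genes, and limma-voom also called 0 of the 10. At an unadjusted p under 0.05 edgeR, DESeq2 and limma-voom each had 1 of the 10, Colec11, beside 2.93% of all tested genes in edgeR, or 1.36% for genes higher in KO-TAC, as Colec11 was, 3.18% in DESeq2 and 3.01% in limma-voom. In edgeR that count was 0 of the 10 when KO-TAC replicate 1, WT-TAC replicate 1 or WT-TAC replicate 3 was left out. It was 2 without KO-TAC replicate 2 (Colec11 and Steap4), beside 297 of all 12873 genes tested then. Without KO-TAC replicate 3 or WT-TAC replicate 2 it was also 2 (Vtn and Colec11), beside 723 of 12948 and 369 of 12817 genes. Fitted log2 fold changes of KO-TAC over WT-TAC were above 0 for 7 markers and below 0 for 3, with a median of 0.29, whereas 50.2% of all tested genes were above 0 and their median was 0.0012. The 3 KO-TAC libraries lay above the 3 WT-TAC libraries for 2 of the 10, Rgs5 and Kcnj8, beside 4.26% of all tested genes, and below them for 0 of the 10, beside 3.72%; either way it was 7.98% of all tested genes. CPM here are read counts scaled to library size with TMM.

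**Figure D1:**
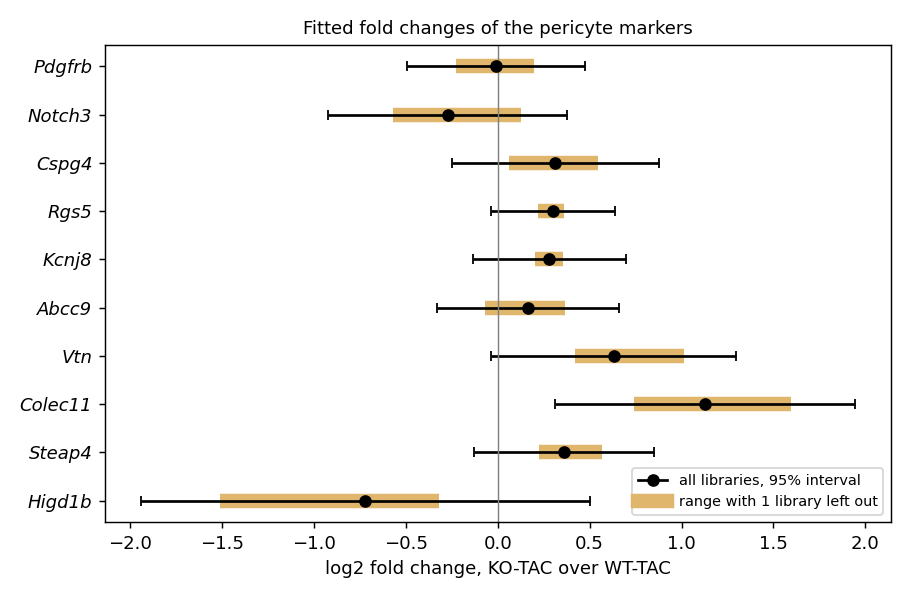
Log2 fold change of KO-TAC over WT-TAC for each of the 10 pericyte markers (points) with its 95% interval (whiskers), and the range of the value when 1 library is left out (bars). The interval of Colec11, at 1.13, lies above 0, although its adjusted p was 0.999. The other intervals include 0, and the bars of Pdgfrb, Notch3 and Abcc9 cross it.

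Pdgfrb, the gene of the PDGF-B receptor, had nearly equal means in the genotypes. It lies on chromosome 18 (chr18:61045150-61085061, plus strand, GRCm38, as are all positions here) and had 109.6, 95.5 and 68.3 CPM in KO-TAC replicates 1 to 3, against 117, 96.4 and 61.9 CPM in WT-TAC replicates 1 to 3. The groups overlapped over nearly their whole range, and replicate 3 was the lowest library of each. The means were 91.1 ± 21.0 CPM in KO-TAC and 91.8 ± 27.9 CPM in WT-TAC (SD, n = 3 each), a log2 fold change of −0.011 ± 0.25 (SE). The 95% interval of the fold was 0.710 to 1.39. Differences inside these bounds remain possible, and the bounds are not a limit of detection. The sign of this value changed with the library left out, from −0.23 without WT-TAC replicate 3 to 0.20 without WT-TAC replicate 1, and it was 0.16 without KO-TAC replicate 3.

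Notch3, the Notch receptor of mural cells, had 48.4, 65.9 and 37.5 CPM in KO-TAC replicates 1 to 3, against 91.4, 59.1 and 33.1 CPM in WT-TAC replicates 1 to 3. WT-TAC replicate 1 was the highest library and the groups overlapped. The means were 50.6 ± 14.3 CPM in KO-TAC and 61.2 ± 29.2 CPM in WT-TAC (SD, n = 3 each), with a log2 fold change of −0.27 ± 0.33 (SE) and a 95% interval of the fold of 0.528 to 1.30. Without WT-TAC replicate 1 the value turned to 0.13, and without WT-TAC replicate 3 it was −0.57. In the annotation its exons share 488 bases with Gm17276, an antisense gene, and without a stated strand setting the reads of the pair cannot be told apart. Cspg4 encodes NG2, a cell-surface proteoglycan of pericytes, and had 71.2, 91.5 and 44.9 CPM in KO-TAC replicates 1 to 3, against 62.9, 68.5 and 35.7 CPM in WT-TAC replicates 1 to 3. Its groups overlapped, replicate 2 was the highest library and replicate 3 the lowest in each, and its log2 fold change was 0.31 ± 0.29 (SE), with a 95% interval of the fold of 0.840 to 1.84. With 1 library left out it ran from 0.06 to 0.55, the lowest without KO-TAC replicate 2 and the highest without KO-TAC replicate 3.

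**Figure D2:**
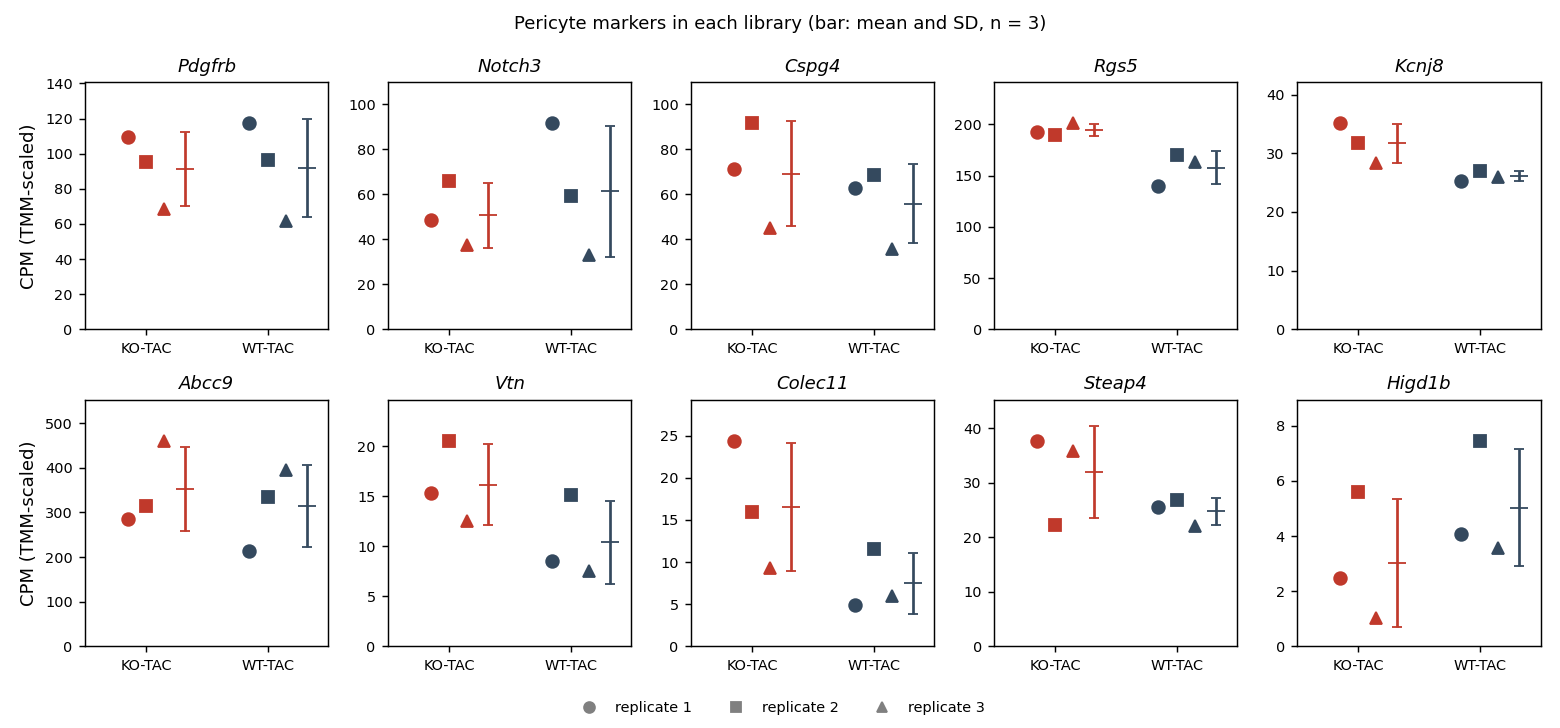
CPM on TMM-scaled library sizes (vertical axes, from 0) of the 10 pericyte markers in the 3 KO-TAC libraries (left, red) and the 3 WT-TAC libraries (right, dark blue). Symbols give the replicate number and bars the mean and SD; for Rgs5 and Kcnj8 the 3 KO-TAC points all lie above the 3 WT-TAC points, and for the other 8 the groups overlap.

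Rgs5 and Kcnj8 varied least within groups for their level. Rgs5 encodes a regulator of G-protein signalling that dampens the response of mural cells to vasoconstrictors. It had 193, 189 and 201 CPM in KO-TAC replicates 1 to 3, against 139.7, 170.3 and 163 CPM in WT-TAC replicates 1 to 3, so that the lowest KO-TAC library stood above the highest WT-TAC library. The means were 194 ± 5.96 CPM in KO-TAC and 158 ± 16.1 CPM in WT-TAC (SD, n = 3 each), the log2 fold change 0.30 ± 0.17 (SE) and the 95% interval of the fold 0.974 to 1.56. Leaving out any single library kept it between 0.22 and 0.36. The coefficient of variation within groups was 7.52% for Rgs5 and 7.79% for Kcnj8, against 27.0% for Pdgfrb and 39.2% for Notch3.

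Kcnj8 and Abcc9 encode the pore (Kir6.1) and the regulatory sulphonylurea receptor (SUR2) of the vascular ATP-sensitive potassium channel. They are neighbours on chromosome 6 (chr6:142564837-142571614, minus strand, and chr6:142587862-142702315, minus strand), 16.2 kb apart, yet their levels followed different libraries. Kcnj8 had 35.1, 31.7 and 28.4 CPM in KO-TAC replicates 1 to 3, against 25.3, 27.0 and 26.0 CPM in WT-TAC replicates 1 to 3, without overlap. Its means were 31.7 ± 3.35 CPM in KO-TAC and 26.1 ± 0.826 CPM in WT-TAC (SD, n = 3 each), its log2 fold change was 0.28 ± 0.21 (SE), and leaving out single libraries gave 0.20 to 0.35. Abcc9 had 285, 315 and 460.4 CPM in KO-TAC replicates 1 to 3, against 214, 334 and 395 CPM in WT-TAC replicates 1 to 3. Here the groups overlapped, and replicate 3 was the highest and replicate 1 the lowest in each, the opposite of Pdgfrb. Its log2 fold change of 0.17 ± 0.25 (SE) turned to −0.07 without KO-TAC replicate 3 and to −0.048 without WT-TAC replicate 1. The ratio of Abcc9 to Kcnj8, each as CPM per kb of exon, was 2.47, 3.02 and 4.94 in KO-TAC replicates 1 to 3, against 2.57, 3.77 and 4.62 in WT-TAC replicates 1 to 3. The mean log2 deviation of the 10 cardiomyocyte markers was −0.23, 0.063 and 0.23 in KO-TAC replicates 1 to 3 and −0.25, 0.072 and 0.12 in WT-TAC replicates 1 to 3, which puts the libraries of each genotype in the same order as Abcc9 does. The part of cardiomyocyte Abcc9 in its level was not tested, and its exons share 158 bases with the antisense gene 5330439B14Rik. The channel subunits made by other genes, Kcnj11 (Kir6.2) and Abcc8 (SUR1), had log2 fold changes of 0.11 ± 0.17 and −0.11 ± 0.24 (SE), and neither was called.

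For the markers with non-overlapping groups, and for the channel partner that did overlap, the window from 250 bases before to 50 after the annotated start is shown (RefSeq, GRCm38.p6). Capitals mark TGGGAA, or TTCCCA where it reads on the other strand, the core that the Notch effector RBPJ binds. Kcnj8 and Abcc9 each hold 1 such core and Rgs5 holds 0.
Rgs5 (chr1:169655251-169655550, plus strand): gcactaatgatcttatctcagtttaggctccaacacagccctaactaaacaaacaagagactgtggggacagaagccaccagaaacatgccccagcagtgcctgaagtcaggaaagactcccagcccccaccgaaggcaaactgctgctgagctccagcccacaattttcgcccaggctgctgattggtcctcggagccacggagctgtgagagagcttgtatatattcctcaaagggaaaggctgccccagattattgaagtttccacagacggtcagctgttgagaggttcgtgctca
Kcnj8 (chr6:142571565-142571864, minus strand): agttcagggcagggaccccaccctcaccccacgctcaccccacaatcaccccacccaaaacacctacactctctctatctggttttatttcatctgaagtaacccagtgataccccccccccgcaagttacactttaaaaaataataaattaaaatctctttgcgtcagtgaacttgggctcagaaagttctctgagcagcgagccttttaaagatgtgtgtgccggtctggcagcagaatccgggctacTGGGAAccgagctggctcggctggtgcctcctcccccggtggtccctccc
Abcc9 (chr6:142702225-142702524, minus strand): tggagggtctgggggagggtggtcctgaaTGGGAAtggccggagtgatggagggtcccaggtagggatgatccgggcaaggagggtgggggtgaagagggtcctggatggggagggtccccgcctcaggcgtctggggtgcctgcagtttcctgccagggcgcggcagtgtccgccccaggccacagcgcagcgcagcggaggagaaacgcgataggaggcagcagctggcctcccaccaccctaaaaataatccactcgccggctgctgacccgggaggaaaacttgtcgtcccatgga
Of the 8 markers with a window in the table, 5 held TGGGAA on either strand (Kcnj8, Abcc9, Vtn, Colec11 and Steap4), and 25.6% of all 32851 windows held it. The CArG box, the motif of serum response factor in smooth muscle genes, was in 0 of the 8 and in 1.63% of all windows. A match is a description of the letters only.

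Colec11 and Vtn encode secreted proteins, and they had the largest positive fold changes of the 10. Colec11, a collectin of the lectin pathway of complement, had 24.4, 15.9 and 9.31 CPM in KO-TAC replicates 1 to 3, against 4.88, 11.6 and 6.03 CPM in WT-TAC replicates 1 to 3. KO-TAC replicate 1 was the highest library and WT-TAC replicate 1 the lowest, and the groups overlapped, since WT-TAC replicate 2 exceeded KO-TAC replicate 3. The means were 16.5 ± 7.57 CPM in KO-TAC and 7.50 ± 3.59 CPM in WT-TAC (SD, n = 3 each), the log2 fold change 1.13 ± 0.42 (SE) and the 95% interval of the fold 1.24 to 3.84. In edgeR its adjusted p was 0.999, and its adjusted p over the other settings and tools ran from 0.493 to 1. With 1 library left out its log2 fold change ran from 0.74 to 1.60.

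Vtn, which encodes the adhesive glycoprotein vitronectin, had 15.3, 20.5 and 12.6 CPM in KO-TAC replicates 1 to 3, against 8.49, 15.1 and 7.53 CPM in WT-TAC replicates 1 to 3. The groups overlapped and replicate 2 was the highest library of each. Its log2 fold change was 0.63 ± 0.34 (SE), with a 95% interval of the fold of 0.975 to 2.46, and it ran from 0.42 to 1.01 with 1 library left out. Liver also makes vitronectin and this collectin. Of 6 hepatocyte markers, Serpina1a had 0 counts in all 6 libraries, and Alb, the albumin gene, had 0 to 2 counts per library. The 6 together summed to 1.48 to 8.33 CPM in KO-TAC and 2.36 to 9.87 CPM in WT-TAC, most of it Ahsg, which had 8.18, 4.37 and 1.03 CPM in KO-TAC replicates 1 to 3 and 1.89, 9.18 and 7.94 CPM in WT-TAC replicates 1 to 3. The part of hepatocyte RNA in Vtn and Colec11 was not tested. Among 6 partners of vitronectin edgeR and limma-voom called 0 and DESeq2 1, Itgb3, beside 0.128% of all tested genes in DESeq2. Itgb3 was also the 1 with an unadjusted p under 0.05 in edgeR, beside 2.93% of all tested genes, and 3 of the 6 were above and 3 below 0. Itgb3, the beta chain of the vitronectin receptor that platelets and vascular cells carry, had 7.60, 6.32 and 6.95 CPM in KO-TAC replicates 1 to 3, against 43.3, 23.2 and 10.0 CPM in WT-TAC replicates 1 to 3, a log2 fold change of −1.87 ± 0.44 (SE). That gene did not pass in edgeR (adjusted p = 0.874). It was called by DESeq2 (adjusted p = 0.0181), by edgeR on all genes with a count (adjusted p = 5.65e-04) and by edgeR when WT-TAC replicate 3 was left out (adjusted p = 0.0271). The urokinase gene Plau had a log2 fold change of 0.49 ± 0.50 and the integrin gene Itgb5 one of 0.24 ± 0.25 (SE).

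Steap4, a metalloreductase gene of pericytes that fat cells also use, had 37.7, 22.2 and 35.8 CPM in KO-TAC replicates 1 to 3, against 25.5, 26.9 and 22.1 CPM in WT-TAC replicates 1 to 3. In KO-TAC, replicates 1 and 3 stood above all WT-TAC libraries and replicate 2 below 2 of them. Its log2 fold change was 0.36 ± 0.25 (SE), with a 95% interval of the fold of 0.916 to 1.80. Leaving out single libraries gave 0.23 to 0.57. The fat cell gene Adipoq had 4.97, 0 and 0 CPM in KO-TAC replicates 1 to 3 and 0, 0 and 5.34 CPM in WT-TAC replicates 1 to 3. It was thus counted in KO-TAC replicate 1, which had the highest Steap4, and in WT-TAC replicate 3, which had the lowest, and the part of fat cells in Steap4 was not tested. The 8 fat cell markers summed to 279.8 to 359 CPM in KO-TAC and 279 to 331 CPM in WT-TAC, most of it Pnpla2, which other tissues also use. The mean log2 deviation of the 5 that were tested was 1.14, 0.25 and −0.20 in KO-TAC replicates 1 to 3 and −1.50, −1.27 and 1.58 in WT-TAC replicates 1 to 3, and Plin1 had 0 counts in WT-TAC replicates 1 and 2. Higd1b, which encodes a mitochondrial protein of the hypoxia-inducible domain family, was the lowest marker, with 17, 46 and 7 counts in KO-TAC replicates 1 to 3 and 26, 65 and 26 counts in WT-TAC replicates 1 to 3. That is 2.48, 5.59 and 1.03 CPM in KO-TAC replicates 1 to 3, against 4.09, 7.46 and 3.56 CPM in WT-TAC replicates 1 to 3. The groups overlapped, the log2 fold change was −0.72 ± 0.62 (SE) and the 95% interval of the fold was 0.260 to 1.42, the widest of the 10 on the log scale. It was below 0 whichever library was left out, at −1.51 to −0.32.

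Per length of exon, Rgs5 and Abcc9 were the most abundant of the markers and the lowest means were those of Higd1b in KO-TAC and Colec11 in WT-TAC. Rgs5 stood at 42.8 ± 1.31 CPM per kb in KO-TAC and 34.7 ± 3.53 CPM per kb in WT-TAC and Abcc9 at 42.2 ± 11.2 CPM per kb in KO-TAC and 37.6 ± 11 CPM per kb in WT-TAC (SD, n = 3 each). These 2 overlapped, and no library of either fell to the level of Pdgfrb, which was at 16.6 ± 3.83 CPM per kb in KO-TAC and 16.8 ± 5.10 CPM per kb in WT-TAC. Kcnj8 followed at 12.4 ± 1.31 CPM per kb in KO-TAC and 10.2 ± 0.324 CPM per kb in WT-TAC; its KO-TAC libraries overlapped those of Pdgfrb, its WT-TAC libraries did not, and Pdgfrb was the higher in 3 of 3 libraries of each. Below it the order differed between the genotypes. Colec11 was the fifth in KO-TAC and the tenth in WT-TAC, at 10.2 ± 4.67 CPM per kb in KO-TAC and 4.63 ± 2.22 CPM per kb in WT-TAC. Steap4 was at 10.1 ± 2.67 CPM per kb in KO-TAC and 7.86 ± 0.785 CPM per kb in WT-TAC, Vtn at 7.95 ± 1.99 CPM per kb in KO-TAC and 5.12 ± 2.04 CPM per kb in WT-TAC and Notch3 at 6.25 ± 1.77 CPM per kb in KO-TAC and 7.57 ± 3.61 CPM per kb in WT-TAC, and Cspg4 was at 5.80 ± 1.957 CPM per kb in KO-TAC and 4.67 ± 1.47 CPM per kb in WT-TAC. Higd1b, at 3.58 ± 2.75 CPM per kb in KO-TAC and 5.95 ± 2.50 CPM per kb in WT-TAC, was the tenth in KO-TAC and the seventh in WT-TAC. From Colec11 down, each marker and the next in the KO-TAC order overlapped in both genotypes.

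**Figure D3:**
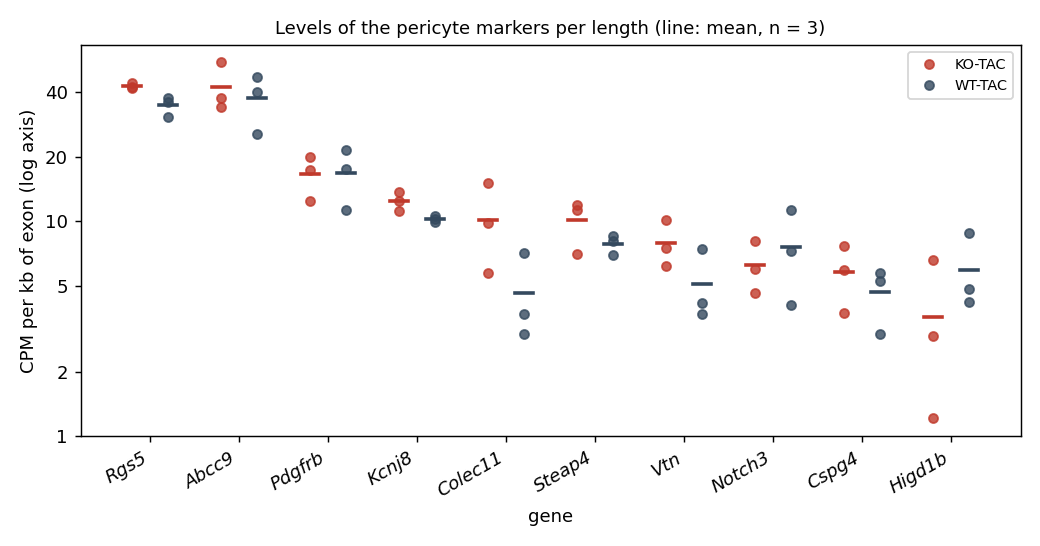
Level of each pericyte marker as CPM per kb of exon (vertical log axis), in the order of the KO-TAC means, with KO-TAC libraries in red to the left and WT-TAC libraries in dark blue to the right; lines are means of 3. Rgs5 and Abcc9 sit above the other 8 in every library.

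The markers did not all vary together across libraries, though some pairs did. Likeness was measured as the root mean square distance between profiles of log2 CPM over the 6 libraries, each centred and scaled, so that 0 means the same shape and 2 a mirror image. It is a description over 6 libraries that differ in total counts and in the levels of cell type markers. The part of either in the distances was not tested. Pdgfrb was close to Notch3 (0.53) and Cspg4 (0.62), but far from Rgs5 (1.60) and nearly a mirror image of Abcc9 (1.95). Kcnj8 was closest to Colec11 (0.34), and Vtn also to Colec11 (0.55), whereas Kcnj8 and its channel partner Abcc9 were at 1.42. Rgs5 was nearer to Colec11 (0.70) and Kcnj8 (0.73) than to Notch3 (1.75). Vtn was nearer to Cspg4 (0.65) than to Kcnj8 (0.73) or Rgs5 (0.80). Whether the markers form separate sets was not tested. Replicate 3 was the lowest library of both genotypes for Pdgfrb, Notch3, Cspg4, Vtn and Higd1b.

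Against 11287 tested genes (mean log2 CPM 1 or more), Notch3 ranked 528 by nearness to Pdgfrb, Cspg4 863 and Abcc9 11073. The 5 genes nearest to Pdgfrb were Zfp105, Obfc1, Pdlim7, Ap5z1 and Ap2b1, at distances of 0.0628 to 0.116, against a median of 1.40 over all compared. Pdlim7, for example, a cytoskeletal adaptor gene, had 50.0, 42.6 and 29.7 CPM in KO-TAC replicates 1 to 3, against 52.4, 41.8 and 24.7 CPM in WT-TAC replicates 1 to 3. The 5 nearest to Rgs5 were Ift52, Tmem171, Bap1, Sri and Atp5j2, at 0.140 to 0.220, against a median of 1.42. Sri, the gene of the calcium-binding protein sorcin, had 34.9, 35.6 and 37.5 CPM in KO-TAC replicates 1 to 3, against 24.5, 33.2 and 30.7 CPM in WT-TAC replicates 1 to 3. None of the other 9 markers was among the 5 nearest to either gene.

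**Figure D4:**
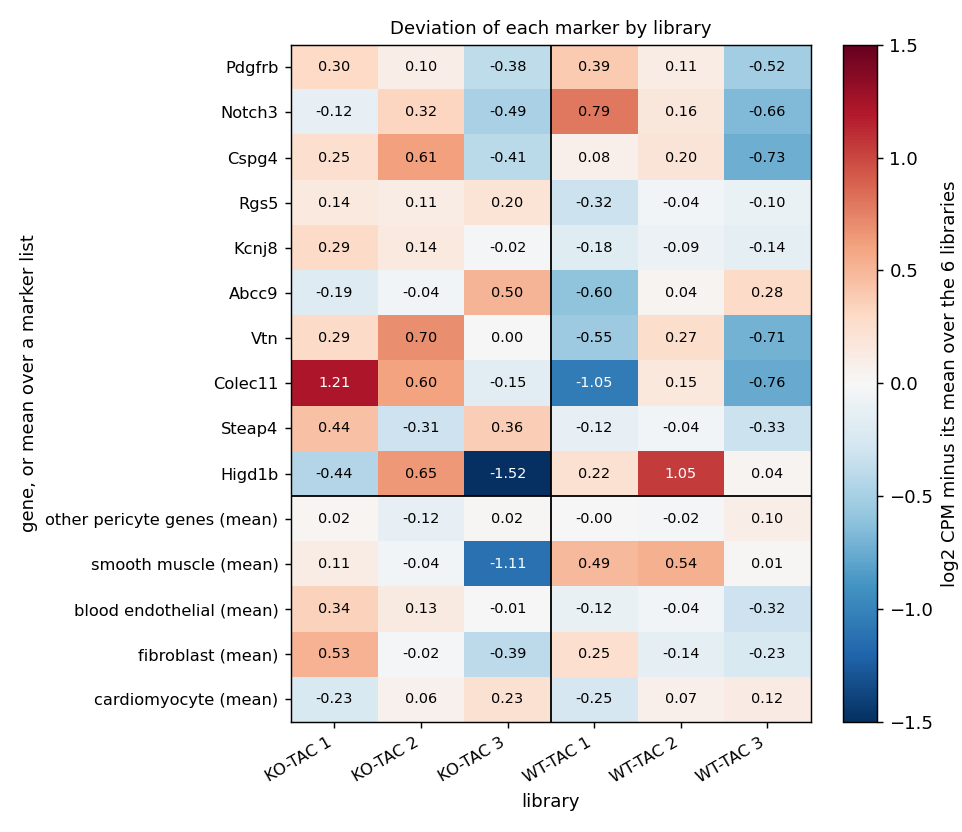
Deviation of log2 CPM from its mean over the 6 libraries for the 10 pericyte markers (upper rows) and for the mean of 5 marker lists (lower rows), with KO-TAC libraries left and WT-TAC libraries right. Pdgfrb, Notch3 and Cspg4 were at −0.73 to −0.38 in replicate 3 of both genotypes, where Abcc9 was at 0.50 and 0.28, and the smooth muscle mean was −1.11 in KO-TAC replicate 3.

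Other genes known from pericytes were spread around 0. Of 20 such genes 19 were tested, Foxf2 having too few counts, and edgeR, DESeq2 and limma-voom each called 0, with 7 above and 12 below 0 and a median log2 fold change of −0.066. At an unadjusted p under 0.05 each tool had 0. Rgs4, a relative of Rgs5, had 14.8, 14.8 and 19.8 CPM in KO-TAC replicates 1 to 3, against 12.1, 10.2 and 10.96 CPM in WT-TAC replicates 1 to 3, at 0.57 ± 0.28 (SE). Its groups did not overlap, which held for 2 of the 19, both higher in KO-TAC, beside 4.26% of all tested genes. Agtr1a, the angiotensin II type 1a receptor gene, had −0.65 ± 0.32, Gucy1a3, a subunit gene of the nitric oxide receptor, −0.45 ± 0.24, and Foxc1, a transcription factor gene of mural cells, −0.54 ± 0.32; their groups overlapped. Gucy1a3 was at −0.22 without WT-TAC replicate 1 and Foxc1 at −0.19 without WT-TAC replicate 3.

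Ligands and receptors that tie pericytes to the endothelium passed no test either: in the PDGF, Notch, angiopoietin and channel lists, edgeR, DESeq2 and limma-voom each had 0 genes called and 0 at an unadjusted p under 0.05. Of 6 PDGF ligand and receptor genes beside Pdgfrb 0 were called, 5 above and 1 below 0. Pdgfb, the ligand, had 26.3, 26.4 and 21.1 CPM in KO-TAC replicates 1 to 3, against 17.3, 23.9 and 13.0 CPM in WT-TAC replicates 1 to 3, at 0.44 ± 0.27 (SE), with overlap. Pdgfra, the fibroblast receptor, had 0.27 ± 0.21, Pdgfd 0.22 ± 0.26 and Pdgfc 0.15 ± 0.46. Of 14 other Notch pathway genes 0 were called, 9 above and 5 below 0, with a median of 0.12. Rbpj, the DNA-binding partner of Notch, had 28.9, 16.9 and 28.1 CPM in KO-TAC replicates 1 to 3, against 35.7, 29.6 and 32.6 CPM in WT-TAC replicates 1 to 3, at −0.41 ± 0.25 (SE). Each KO-TAC library was below each WT-TAC library, which held for 1 of the 14, beside 3.72% of all tested genes. The ligand gene Jag2 had 0.35 ± 0.27, the endothelial receptor gene Notch4 0.33 ± 0.25 and the Notch target Nrarp 0.76 ± 0.48, all with overlap. Of 4 angiopoietin pathway genes 0 were called: Angpt1, the ligand that pericytes make, had −0.33 ± 0.32, Angpt2 0.055 ± 0.57, and the endothelial receptor genes Tek and Tie1 0.22 ± 0.22 and 0.26 ± 0.19.

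Smooth muscle markers, the other mural set, passed no test. Of 9 markers edgeR, DESeq2 and limma-voom each called 0, with 2, 5 and 4 at an unadjusted p under 0.05, beside 2.93%, 3.18% and 3.01% of all tested genes. In edgeR 2 were above and 7 below 0, where 50.2% of all tested genes were above 0, with a median log2 fold change of −0.66, against 0.29 for the pericyte markers. Myh11, smooth muscle myosin, had 82.3, 92.7 and 38.6 CPM in KO-TAC replicates 1 to 3, against 103, 121 and 104 CPM in WT-TAC replicates 1 to 3, at −0.62 ± 0.27 (SE), and the ratio of its CPM to that of Rgs5 was 0.426, 0.490 and 0.192 in KO-TAC replicates 1 to 3, against 0.740, 0.709 and 0.635 in WT-TAC replicates 1 to 3. The same ratio for Acta2, smooth muscle actin, was 0.343, 0.311 and 0.110 in KO-TAC replicates 1 to 3, against 0.541, 0.545 and 0.391 in WT-TAC replicates 1 to 3. Both ratios were lower in each KO-TAC library than in any WT-TAC library, and KO-TAC replicate 3 had the lowest of all. For Myh11 this separation had to follow from its parts. Each KO-TAC library was below each WT-TAC library for Myh11 and above each for Rgs5. The Acta2 ratio has the same Rgs5 denominator, so neither separation adds to the single genes. These ratios were chosen after the values were seen and were not tested. Lmod1 had −1.50 ± 0.49, Tagln −1.06 ± 0.51 and Acta2 −0.66 ± 0.34, and without KO-TAC replicate 3 Myh11 was at −0.32, Tagln at −0.61 and Acta2 at −0.31. The mean deviation over the list was 0.11, −0.044 and −1.11 in KO-TAC replicates 1 to 3 and 0.49, 0.54 and 0.015 in WT-TAC replicates 1 to 3.

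Endothelial and basement membrane genes, the surroundings of the pericyte, mostly had log2 fold changes above 0. Of 10 blood endothelial markers edgeR, DESeq2 and limma-voom each called 0, with 2 at an unadjusted p under 0.05 by each tool, beside 2.93% of all tested genes in edgeR, where they were Kdr and Cldn5. In edgeR 9 were above and 1 below 0, with a median of 0.26. Kdr, the receptor for VEGF, had 299, 286 and 256 CPM in KO-TAC replicates 1 to 3, against 182, 233 and 153 CPM in WT-TAC replicates 1 to 3, without overlap, at 0.56 ± 0.20 (SE), and Cldn5, a tight junction gene, 1.04 ± 0.37, also without overlap, beside 4.26% of all tested genes. Cdh5 had 0.33 ± 0.21 and Emcn 0.46 ± 0.30, with overlap. Of 10 basement membrane genes each tool had 0 called and 0 at an unadjusted p under 0.05, and 10 of 10 were above 0 in edgeR, with a median of 0.26; Col4a1 had 0.46 ± 0.33, Col4a2 0.38 ± 0.30, Lamb1 0.34 ± 0.22 and Nid2 0.29 ± 0.26, each with overlapping groups. Without WT-TAC replicate 3 Col4a1 was at 0.16 and Col4a2 at 0.087, and without KO-TAC replicate 1 Lamb1 was at 0.20 and Nid2 at −0.052. The mean deviation of the endothelial list was 0.34, 0.13 and −0.0066 in KO-TAC replicates 1 to 3 and −0.12, −0.038 and −0.32 in WT-TAC replicates 1 to 3, highest in KO-TAC replicate 1 and lowest in WT-TAC replicate 3. Its part in the pericyte values was not tested. The 10 fibroblast markers had 7 above and 3 below 0 with a median of 0.061, and the 8 macrophage markers 4 and 4 with a median of −0.049. The 3 tools called 0 in either list. At an unadjusted p under 0.05 edgeR had 0 in both, beside 2.93% of all tested genes. DESeq2 and limma-voom each had 1 fibroblast gene, beside 3.18% and 3.01% of all tested genes.

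Notch3 lies in a stretch of chromosome 17 in which several genes differed between the genotypes in some of the fits, a comparison not made for the other 9 markers. Its position is chr17:32120820-32166852, minus strand. Within 5 Mb on either side 175 other genes were tested, of which 16, or 9.14%, had an unadjusted p under 0.05, against 2.93% of all tested genes, and 1 was called, the pseudogene H2-Ea-ps, at 8.11 ± 2.05 CPM in KO-TAC and 0.0457 ± 0.0791 CPM in WT-TAC (SD, n = 3 each). The 95% interval of that share, by the exact Clopper-Pearson method and for counting only, was 5.32% to 14.4%; neighbouring genes are not independent. The genes with the smallest p that the naming rule covers were H2-Aa, H2-Eb1, H2-K1 and H2-Ab1, antigen-presenting molecules, at −2.12 ± 0.35, −1.51 ± 0.28, −2.28 ± 0.43 and −1.66 ± 0.39 (log2 fold change and SE), 1.83 to 2.14 Mb to one side, and Glo1, at 1.10 ± 0.19, 1.49 Mb to the other side. None of these 5 passed in edgeR, with adjusted p of 0.102, 0.198, 0.600, 0.874 and 0.119 in that order. DESeq2 called all 5, with adjusted p of at most 0.0159, beside 0.128% of all tested genes. The 5 were picked for their small edgeR p from the same counts, so the DESeq2 calls are not separate evidence. Notch3 itself, between Glo1 and the H2 genes, had an adjusted p of 0.999 in edgeR.

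**Figure D5:**
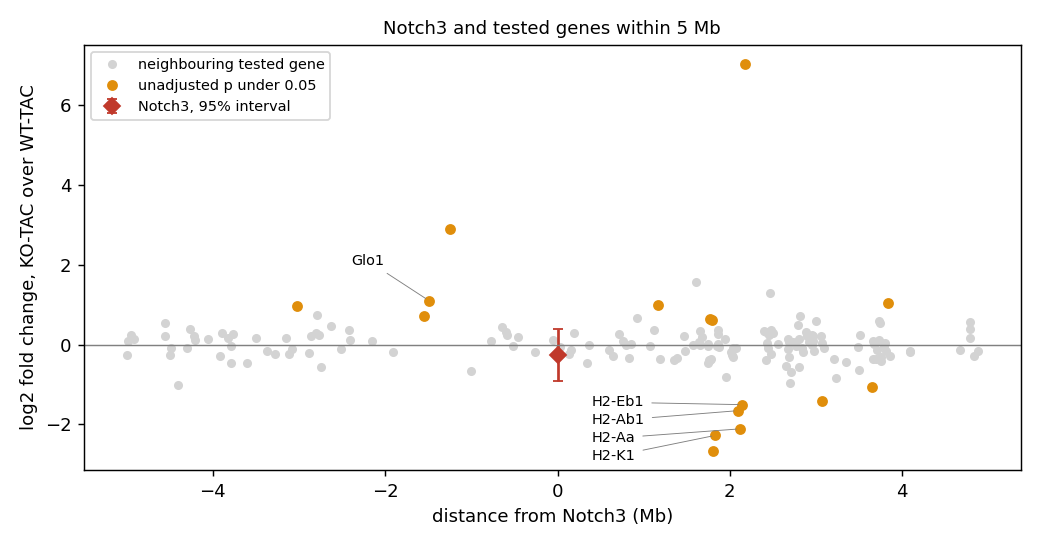
Log2 fold change of KO-TAC over WT-TAC (vertical axis) of Notch3 (diamond, with its 95% interval) and of the 175 tested genes within 5 Mb, by distance from Notch3 in Mb (horizontal axis). Genes with an unadjusted p under 0.05 are orange; Notch3 lies at −0.27 between Glo1 on one side and the H2 genes on the other.

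The deleted microRNA was read against the markers' transcripts, since genes with a match to its seed are its possible direct targets. Its mature form is shown with the seed, bases 2 to 8, in capitals (RefSeq, GRCm38.p6, chr19:22750610-22750631, plus strand).
miR-204-5p: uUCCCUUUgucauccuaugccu
Of the 10 markers 0 held AAAGGGA, the match to the whole seed, in its longest annotated 3' UTR, where 17.0% of 12017 tested genes with a 3' UTR did. Notch3 and Steap4 each held the shorter AAGGGA, which pairs with bases 2 to 7. How many of all tested genes hold this shorter match was not counted, so there is no share to set beside it. The Notch3 and Steap4 sites are shown with 10 bases on each side and the match in capitals.
Notch3 (chr17:32121596-32121621, minus strand): ttggccccctAAGGGAtctgggacct
Steap4 (chr5:7980701-7980726, plus strand): ccagaatagcAAGGGAaccctcgctg
Their log2 fold changes were −0.27 ± 0.33 and 0.36 ± 0.25 (SE), and neither was called. The 3' UTRs searched were 71 to 3473 bases long, with those of Vtn and Higd1b, 77 and 71 bases, the shortest.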

How the data were processed

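The authors deposited raw read counts per gene symbol for 6 heart libraries, without normalization. Per the submitters' processing notes, FastQC, HISAT2 2.1.0, Subread and edgeR and the builds mm10 and GRCm38 were used, with no role or order given. Counts were tested in R 4.3.3 with edgeR 4.0.16: filterByExpr with a minimum count of 10, TMM scaling and a robust quasi-likelihood fit with no covariate, adjusted by Benjamini-Hochberg over 12487 genes. Standard errors were derived as the size of the log2 fold change divided by the root of the F statistic. Intervals span 1.96 standard errors and can be narrower than the test allows. Log2 CPM used a prior count of 2.

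Exon lengths, positions and 3' UTRs came from GENCODE M21 (GRCm38), matched to 23309 genes by current and 666 by older symbol, with 429 unmatched. Promoter windows and the microRNA came from RefSeq (GRCm38.p6). The column of KO-TAC replicate 3 was assigned by its library index.

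The markers, lists and tests were chosen with earlier results of these data known. Genes named are the 10 markers, the 5 nearest to Pdgfrb and to Rgs5, up to 4 genes per list and up to 5 neighbours of Notch3 with the smallest p, and called genes. Pseudogenes were left out, and H2-Ea-ps, Adipoq, Plin1, Pnpla2, Alb, Serpina1a and Ahsg were named after their values were seen. Some genes covered by this rule are not reported here. The fibroblast, cardiomyocyte, macrophage, adipocyte and hepatocyte lists are given as counts and levels. As alternatives, scaling was by RLE, by the upper quartile or by total counts, the filter was dropped or set to a minimum count of 20, and further ones were the replicate number as a block, DESeq2 1.42.0, limma-voom (limma 3.58.1), each library left out, windows of 2 and 10 Mb, and CPM on total counts. The fit was tested on simulated data.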

Additional observations from a re-analysis of the deposited data

How the results depend on the processing

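Of the 10 markers 0 were called in the main setting and in each of the 14 others, and 7 kept their direction throughout. The exceptions were Pdgfrb, Abcc9 and Notch3. Pdgfrb turned to 0.0090 with the replicate block and 0.014 with limma-voom. With 1 library left out, log2 fold changes that changed sign ran from −0.23 to 0.20 for Pdgfrb, −0.070 to 0.37 for Abcc9, −0.57 to 0.13 for Notch3, −0.56 to 0.43 for Pdgfc, −0.36 to 0.42 for Angpt2, −0.38 to 0.028 for Abcc8, −0.035 to 0.68 for Emcn and −0.052 to 0.51 for Nid2. Pdgfc was −0.025 with the block and −0.063 with limma-voom. The cause of these changes was not tested.

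Over all tested genes 3 were called in the main setting, 21 with no filter, 6 with the replicate block, 16 by DESeq2 and 0 by limma-voom, which had 376 at an unadjusted p under 0.05. Leaving out 1 library gave 0 to 7: WT-TAC replicate 1 left out gave the 0 (with 437 genes at an unadjusted p under 0.05), KO-TAC replicate 2 left out the 7, and KO-TAC replicate 3 left out 6. Same-numbered libraries deviated together with correlations of 0.135, 0.011 and 0.257, and KO-TAC replicate 2 correlated best with WT-TAC replicate 1 (0.146), so the numbers were not taken to pair the libraries. KO-TAC replicate 3 and WT-TAC replicate 3, whose columns carry the same number, had the highest of these correlations and the lowest chi-square of all pairs, and whether they share a source was not tested. With the block, Vtn joined Colec11 at an unadjusted p under 0.05 and Glo1 was called (adjusted p = 0.0376, edgeR). Of the Notch3 neighbours, 13.8% within 2 Mb and 7.34% within 10 Mb had an unadjusted p under 0.05. Of 34 named list genes, 28 moved by over 1.5 times in log2 fold change when some single library was left out, 5 of them with a change of sign. Higd1b had the fewest counts (7 to 65 per library) and the largest coefficient of variation of the 10 markers (61.8%), and the common biological coefficient of variation over all genes was 0.286.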
